A study of Danio rerio with 6 samples.

Results

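Whole-body RNA of juvenile zebrafish of 28 dpf (days post fertilisation) was compared with that of adult males. The transcripts compared were those with a normalised count of 10 or more in at least 2 of the 6 fish sequenced, which kept 13748 of the 13927 transcripts in the table and left out 179. They belong to 13408 loci of a transcript assembly made by the authors. The groups were 2 juveniles, numbered 2 and 3 in the table, and 2 adult males, numbered 1 and 2. The labels give no sex for the juveniles and no strain or age for the adults. The 2 adult females of the series were used for the estimate of spread, and their values are given where they help to read a change. No fish received a treatment, and all had been killed by the breeder with Tricaine, an anaesthetic. A library came from a single fish, and differences between animals and technical error were not separated within a group.

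The gonads of domesticated zebrafish do not follow a single known sex chromosome. Juveniles first pass through a stage in which the gonad resembles an ovary, and it later becomes an ovary or a testis. An adult male carries a mature testis filled with germ cells at every stage of sperm formation, while a juvenile is still growing in its skeleton, muscle and gut. RNA from a whole body is a mixture in which each tissue counts by the RNA it holds. More cells of a type and more RNA per cell therefore cannot be told apart.

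A normalised count is the number of reads on a transcript divided by a size factor for the fish. All values were whole multiples of 1 read within 0.01 of a read. The recovered reads were 17243855 and 18635087 in the juveniles and 13980849 and 15881031 in the males, which covers the table only and not the whole library. The table itself was selected by the authors. Every one of the 13927 transcripts passed an adjusted p of 0.05 in their own comparison, whose fold changes tracked females over juveniles. Juveniles against males was not that comparison, but it uses the same juvenile libraries. Pearson's r of the authors' fold changes was 0.99 with females over juveniles and 0.81 with females over males. With males over juveniles it was 0.71. The sizes, directions and percentages below therefore describe a selected table and not the transcriptome. Adjusted p-values may also be too low, because the selection favours transcripts with little spread among juveniles and females.

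Juveniles and adult males differed in 4789 of the 13748 transcripts, which is 34.8% of those tested. Levels were higher in juveniles in 2561 transcripts (18.6%) and lower in 2228 (16.2%). These calls were made with limma on log2 (normalised count + 1) with all 6 fish in the model and an adjusted p under 0.05. In each of them both juveniles lay outside the range of the males. That alone is common in this table, since both juveniles lay above both males in 41.1% of the transcripts tested and below both in 31.6%. On the recovered reads, edgeR called 2441 higher (17.8%) and 2124 lower (15.4%), and DESeq2 called 2911 higher (21.2%) and 2544 lower (18.5%). With only juveniles and males in the model, limma called fewer, with 2160 higher and 1698 lower.

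Which direction held more calls changed with the scaling. With the size factors of the authors, 53.5% of the calls were higher in juveniles. With TMM factors, which trim extreme transcripts, this was 43.6% (2088 higher and 2701 lower). With the upper quartile it was 44.9% (2128 and 2609), and with the median of ratios taken again on the table it was 57.5% (2822 and 2089). When each fish was scaled to its own table total it was 24.8% (1361 and 4125). Relative to the size factors of the authors, the factors of TMM, the upper quartile, the median of ratios and the table total shift the log2 difference of a well counted transcript by -0.16, -0.14, 0.08 and -0.50. Differences of transcripts with few or no reads in a group do not follow this shift, because of the pseudocount.

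Calls were also fewer when any single fish was left out. This held for a female too, which leaves the differences of juveniles against males unchanged. A loss of calls therefore does not by itself mark a fish as different. With a female left out, the calls higher in juveniles stayed the more numerous. Without juvenile 3, limma called 569 transcripts higher and 1034 lower. Without juvenile 2 it called 977 higher and 1325 lower. Without male 1 there were 1371 and 1478 calls, and without male 2 there were 1651 and 1795. In these 4 fits the calls lower in juveniles were the more numerous, and the group left with 1 fish was assumed to vary like the others. Of the calls in the fit with all fish, 485 of the 2561 higher ones (18.9%) and 845 of the 2228 lower ones (37.9%) were kept whichever of the 6 fish was left out.

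The differences ranged widely in size. The median log2 difference of juveniles against males was 0.11, and the median was between 0.105 and 0.109 in each of the 4 pairs of 1 juvenile and 1 male. The pairs share the size factors of the authors, so their agreement does not test this shift. With other scalings the median ran from -0.34 (table total) to 0.19 (median of ratios). The 25th and 75th percentiles were -0.62 and 1.09, and the range from the 5th to the 95th percentile was -3.15 to 2.54. The 1st percentile was -5.45 and the 99th was 4.39. Differences under 1.5-fold made up 38.0% of the transcripts and differences under 2-fold made up 54.9%. The tails were unequal, with the lower one longer at these percentiles.

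This spread between groups can be set beside the spread within them. The 2 juveniles differed from each other by a median of 0.29 on the log2 scale and by more than 2-fold in 13.0% of the transcripts. The 2 males differed by a median of 0.35 and by more than 2-fold in 16.9%. Among transcripts with a mean of 1000 or more normalised counts, 3.31% differed more than 2-fold between the juveniles and 8.61% between the males. The males were thus the less uniform of these 2 pairs for abundant transcripts too. The 2 females differed more than 2-fold in 16.9% of all transcripts and in 3.18% of the abundant ones. The selection of the table favours little spread among juveniles and females. Whether the males also entered the authors' estimate of spread is not known. How much of the contrast between the pairs the selection sets was not tested.

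The balance of directions differed between sizes of change. Among calls under 2-fold, 276 were higher in juveniles and 516 lower, while from 2- to 4-fold 1224 were higher and 572 lower. At 2-fold or more, 2285 transcripts were called higher in juveniles and 1712 lower. At 4-fold or more there were 1061 higher and 1140 lower. At 8-fold there were 399 and 672, and at 16-fold 171 and 386. At 64-fold 48 transcripts were called higher and 97 lower, while at 256-fold 18 were called higher and 12 lower. A called transcript that was higher had a median log2 difference of 1.80 (median standard error 0.37), and one that was lower had a median of -2.05 (median standard error 0.32).

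**Figure D1:**
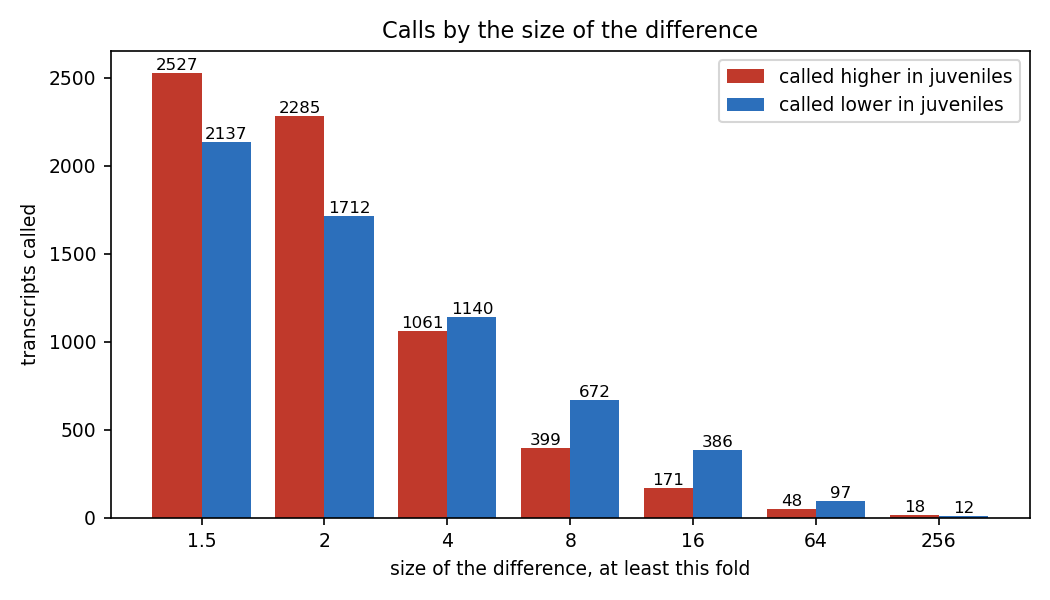
The bars give the number of transcripts called by limma (vertical axis) whose difference between juveniles and adult males was at least the fold on the horizontal axis, red where higher in juveniles and blue where lower. Calls higher in juveniles lead at 2-fold (2285 against 1712) and calls lower in juveniles lead at 16-fold (171 against 386).

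The excess of falls at 16-fold or more was less sensitive to the processing than the balance of all calls. All alternatives used the same selected rows, so whether the selection bears on this excess was not tested. At 16-fold or more, calls lower in juveniles outnumbered those higher under each of the 4 other scalings, from 185 higher and 387 lower with the median of ratios to 128 and 519 with the table total. They also did so with edgeR (187 and 469), with DESeq2 (198 and 554), with a pseudocount of 10 (80 and 128) and without any 1 of the 6 fish, where the counts were between 131 and 201 higher and between 298 and 407 lower. At 2-fold the larger count changed sides with TMM (1844 higher and 1970 lower), the upper quartile (1891 and 1921), the table total (1214 and 2818), without juvenile 2 (955 and 1238), without juvenile 3 (560 and 995) and without male 2 (1533 and 1543). At 4-fold it did so with the median of ratios (1191 and 1100). At 64-fold the excess of falls turned into an excess of rises with a pseudocount of 10 (23 higher and 15 lower), so it depended on the pseudocount there. At 256-fold the larger count changed sides with edgeR (36 higher and 87 lower), DESeq2 (32 and 74) and the table total (13 and 24). Calls of 16-fold or more were also kept more often without any 1 fish, in 127 of 171 (74.3%) of those higher and 249 of 386 (64.5%) of those lower.

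The females were mostly within 4-fold of the males in these large changes, as they were over all calls. Of the 171 transcripts called 16-fold or more higher in juveniles, the female mean was within 4-fold of the male mean in 144 (84.2%). Of the 386 called lower it was so in 333 (86.3%). Over all calls of any size the shares were 89.5% of those higher and 85.6% of those lower. The share over all transcripts tested was not counted. The means were compared with a pseudocount of 1, which draws adult means near the floor together. The median log2 difference of females against males was 0.00 over the 171 and -0.82 over the 386. Over all calls it was -0.56 for those higher and 0.04 for those lower. The table was selected for a difference of females from juveniles, so this is a description of the selected rows and not evidence on adults in general.

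The largest rise on the log2 scale was that of transcript MSTRG.12873.1, which the table leaves without a gene name. It had 15144 and 17373 normalised counts in the juveniles, from 14311 and 18773 reads, and 0 reads in both males and in both females. The juveniles did not overlap the adults. With 3 reads over both males taken as the lower limit, which is 1.26 normalised counts, it was at least 12876-fold higher in juveniles. The fitted log2 difference was 13.99 ± 0.45 (SE, limma adjusted p = 0.000118), and it depends on the pseudocount.

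The largest rise in counts was that of transcript MSTRG.21586.1, the most abundant transcript of both juveniles. It had 2227693 and 1924506 normalised counts in the juveniles, 144483 and 252348 in the males and 190058 and 142667 in the females. Every adult lay far below both juveniles. This single transcript held 12.2% and 11.2% of the normalised counts of the juveniles in the table against 1.16% and 1.99% in the males. The juvenile mean was 10.5 times the male mean, and the log2 difference was 3.44 ± 0.41 (SE, limma adjusted p = 0.00298). The call was lost without female 1 (adjusted p = 0.105), without female 2 (0.129) and with only juveniles and males in the model (0.280), where the difference itself was the same.

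The largest fall on the log2 scale was that of transcript MSTRG.31117.1, also without a name. It had 0 reads in both juveniles, 1384 and 1486 normalised counts in the males, and 449 and 264 in the females. All adults expressed it, and the males had the higher values. It was at least 969-fold lower in juveniles with 3 reads over both of them (1.48 normalised counts) as the lower limit, with a fitted log2 difference of -10.49 ± 0.42 (SE, limma adjusted p = 0.000157).

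The largest fall in counts was that of transcript MSTRG.1187.1, with 25979 and 21167 normalised counts in the juveniles and 102422 and 117065 in the males. The females had 70326 and 116897, so one of them lay with the males and the other between the groups. The male mean was 4.66 times the juvenile mean, with a log2 difference of -2.22 ± 0.29 (SE, limma adjusted p = 0.00383).

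**Figure D2:**
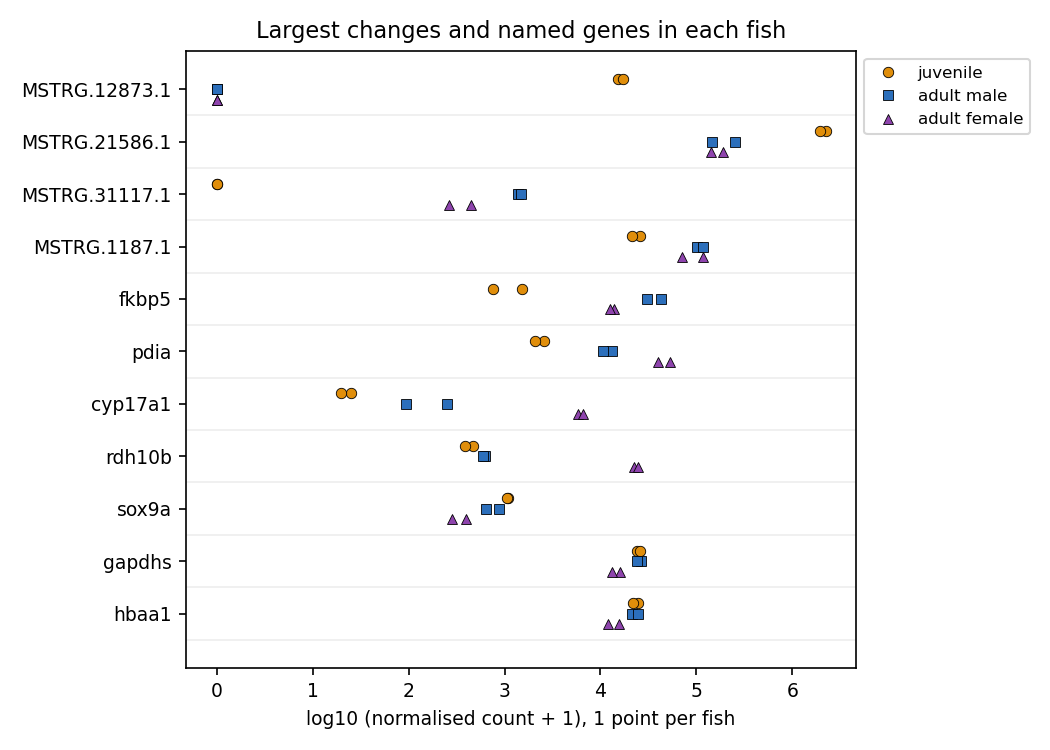
Each point is 1 fish, placed by log10 (normalised count + 1) on the horizontal axis, with a row for each of the 4 transcripts with the largest changes and for 7 named genes. Juveniles (circles) stand apart from males (squares) in the first 8 rows. For sox9a both juveniles are also above both males, and for gapdhs and hbaa1 the symbols overlap.

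The first 20 rises and the first 20 falls were ranked by log2 difference among called transcripts with a mean of 100 or more normalised counts. The 20 rises ran from 7.66 to 13.99 on the log2 scale. Their juvenile means were between 306 and 35728 normalised counts, and their male means between 0 and 90.3. The juveniles were alike in most of them, with a median ratio of 1.24 between the higher and the lower juvenile and a ratio above 2 in 3 of the 20. All 20 were called without any 1 of the 6 fish.

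The 20 falls ran from -10.49 to -7.68, with male means between 320 and 32202 normalised counts and juvenile means between 0 and 82.5. Here the males were less alike than the juveniles were over the rises, and the selection of the table may bear on this too. The ratio between the higher and the lower male had a median of 2.38, was above 2 in 11 of the 20 and reached 7.71. Of these falls, 19 were called without any 1 of the 6 fish. The females had a median of 1.45 normalised counts over the 20 rises and 559 over the 20 falls, which the selection of the table partly sets.

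Transcripts with no reads in one group were unequally divided. No reads were found in both juveniles for 600 transcripts and in both males for 221, with 169 of them at 0 in all 4 fish. Of the 431 at 0 in the juveniles with reads in a male, 168 were called lower in juveniles, with a median male mean of 25.3 normalised counts. Of the 52 at 0 in the males with reads in a juvenile, 30 were called higher, with a median juvenile mean of 37.3, and 20 of these 30 were at 0 in the females too. The selection bears on this, because no transcript in the table was at 0 in both juveniles and both females. In 356 of the 431 the female mean was above the male mean. A count of 0 allows up to 3 reads, so absence is not shown.

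The dependence on abundance was followed in 9 classes of the mean normalised count over the 6 fish. Below a mean of 300 the median log2 difference favoured juveniles. It was 0.67 below 10, 0.46 from 10 to 30, 0.70 from 30 to 100 and 0.44 from 100 to 300. From 300 to 1000 it was 0.03. Above that it was negative, with -0.15 from 1000 to 3000, -0.24 from 3000 to 10000 and -0.23 from 10000 to 30000, until the 35 transcripts of 30000 or more had a median of 0.25.

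The balance of calls moved with it. From 100 to 300 normalised counts 706 transcripts were called higher in juveniles and 402 lower. From 1000 to 3000 there were 298 higher and 512 lower, and from 3000 to 10000 there were 112 higher and 237 lower. Among the 35 most abundant, 11 were called higher and 8 lower. The share called in either direction was lowest, at 26.7%, from 10 to 30 normalised counts and highest, at 57.4%, from 10000 to 30000. The median standard error fell from 0.69 in the first of these classes to 0.21 in the second, so the same log2 difference was more easily called for an abundant transcript.

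**Figure D3:**
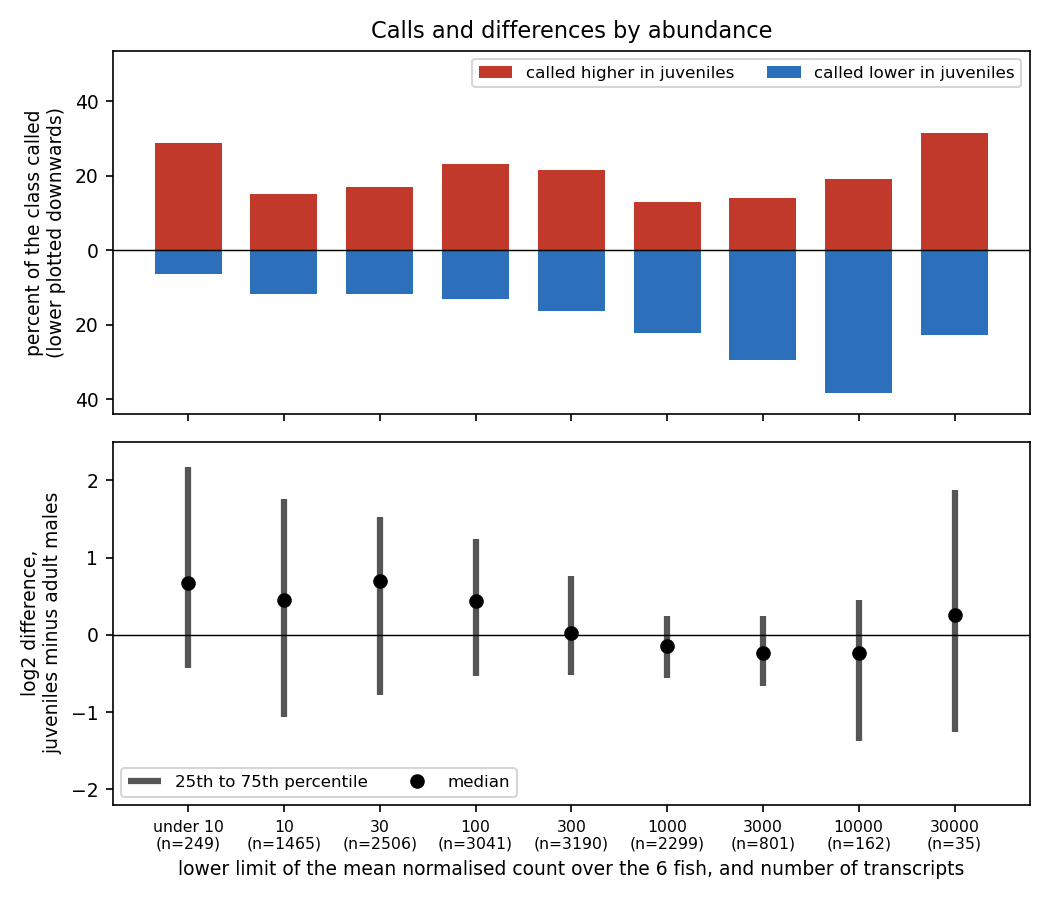
Classes of mean normalised count over the 6 fish are on the horizontal axis, and the upper panel shows the percent of each class called higher (red, upwards) or lower (blue, downwards) in juveniles. The lower panel gives the median of the log2 differences with the range from their 25th to their 75th percentile, and the medians pass from 0.67 in the weakest class to -0.24 between 3000 and 10000.

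The size of the differences, without regard to sign, was smallest from 1000 to 3000 normalised counts. The median size on the log2 scale was 1.48 from 10 to 30 normalised counts, 1.01 from 100 to 300 and 0.44 from 1000 to 3000. It then grew to 0.51, 0.94 and 1.34 in the 3 highest classes. The weak end depended on the pseudocount. With 10 in place of 1, the median size was 0.53 below 10 normalised counts, 0.81 from 10 to 30, 1.06 from 30 to 100 and 0.91 from 100 to 300, so that it rose before it fell. Across the 13748 transcripts, which share libraries and are not independent, Spearman's rho of the size with the mean was -0.32. A single correlation therefore misses the increase at the top.

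The weakest and the most abundant classes depended on how abundance was measured. When the mean of the juveniles and males was used in place of all 6 fish, transcripts below 10 had a median log2 difference of -0.69 and 12.4% were called. From 30 to 300 the medians were still above 0 (0.65 and 0.38), and from 1000 to 10000 still below it (-0.09 and -0.15). From 10000 to 30000 the median turned from -0.23 to 0.13, with 36 calls higher and 35 lower in place of 31 and 62, and at 30000 or more it was 0.80 in place of 0.25. With the table total as scaling, the medians of all classes from 100 upwards were negative. The fall from weak to abundant transcripts was still present there, from 0.23 at 30 to 100 normalised counts to -0.73 at 3000 to 10000.

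**Figure D4:**
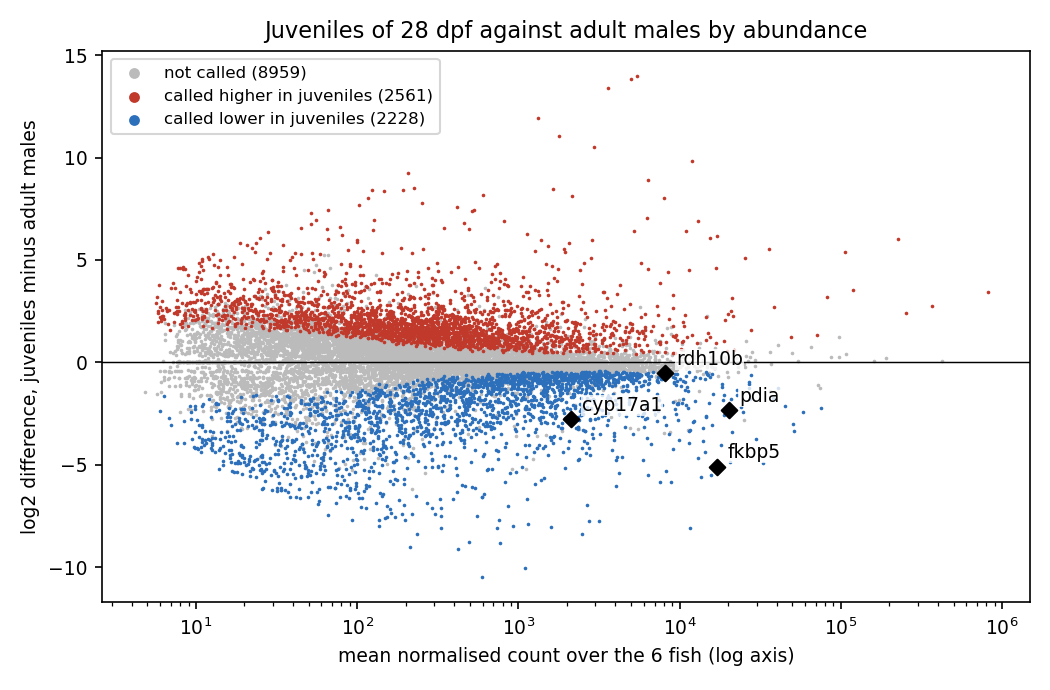
Each point is 1 of the 13748 transcripts, with its mean normalised count over the 6 fish on a log axis and its log2 difference, juveniles minus adult males, on the vertical axis. Points called higher (2561) and lower (2228) are coloured, and the 2 largest log2 changes lie at 13.99 and -10.49.

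A few transcripts held a large part of the juvenile counts. The 10 most abundant transcripts of each fish held 34.6% and 32.3% of its normalised counts in the table for the juveniles against 12.0% and 15.7% for the males. The 100 most abundant held 52.4% and 50.02% against 31.4% and 33.4%. The juveniles did not overlap the males in either share. With the size factors of the authors, the table total was 5184137 normalised counts higher in the juvenile mean than in the male mean. The 4 transcripts highest in the juvenile mean, each called higher, came to 71.8% of this excess, and the first 10 to 88.7%. The excess is a net of rises and falls. The first 100 came to 115.4% of it, so these shares are not parts of a whole.

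Of the 100 transcripts highest in the juvenile mean, 56 were called higher in juveniles and 3 lower. Of the 100 highest in the male mean, 12 were called higher and 51 lower, and 47 transcripts were on both lists. The lists were ranked on the same values, so these counts are a description. The table total, used above as a scaling, is a sum that holds these transcripts.

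**Figure D5:**
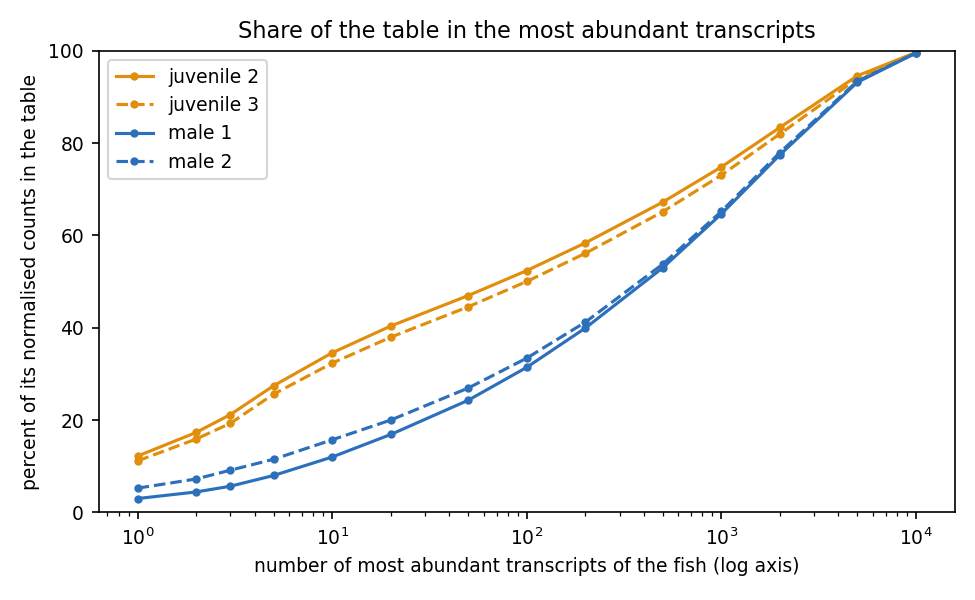
The horizontal axis counts the most abundant transcripts of a fish on a log axis, and the vertical axis is the percent of its normalised counts in the table that they hold, with a line for each juvenile and male. Both juvenile lines start at over 11% and reach 34.6% and 32.3% at 10 transcripts, above the males at 12.0% and 15.7%.

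Loci with a large change had a neighbour with such a change in the same direction more often than other loci did, though most had none. Locus numbers follow position, as far as this could be tested. The loci of the 19 named genes with a position in RefSeq (assembly GRCz12tu) came in the same order by number as by chromosome and position, in 18 of 18 neighbouring pairs. Of the 164 loci with a transcript called 16-fold or more higher in juveniles, 38 (23.2%) had a locus with the adjacent number in the same class. Of the other 13244 loci tested, 113 (0.853%) had such a neighbour. Of the 374 loci with a fall of that size 85 (22.7%) had one, against 205 of 13034 others (1.57%).

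Among changes of 16-fold or more, the longest run of rises held 7 loci in a row and includes MSTRG.12873.1. All 10 of its transcripts were called higher. Together they had 69208 and 76597 normalised counts in the juveniles and 326 and 138 in the males. The run held 5 of the first 6 of the 20 ranked rises, and 5 of its transcripts had no reads in either male. The longest run of falls of that size was also of 7 loci, part of a run of 8 among falls of 4-fold or more, with 7 transcripts that were all called lower. They summed to 1417 and 554 normalised counts in the juveniles and to 46743 and 46396 in the males, and their log2 differences were between -6.91 and -4.14. The runs were chosen after their values were seen. Whether adjacent loci are pieces of 1 gene, related copies that share reads, or overlapping genes on either strand was not tested, and the labels do not say that strand was used in counting. How many separate genes stand behind the largest changes is therefore not known.

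Within loci that had 2 or more called transcripts, these mostly moved the same way. A locus had 2 or more tested transcripts in 291 cases, with 631 transcripts in all. In 76 of them at least 2 transcripts were called, and these were all higher in 40 loci, all lower in 33 and of both directions in 3. The 3 were MSTRG.12689, MSTRG.24120 and MSTRG.26295, named after their values were seen.

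At locus MSTRG.12689, transcript MSTRG.12689.1 had 3.17 and 4.63 normalised counts in the juveniles and 216 and 39.2 in the males. Transcript MSTRG.12689.6 had 220 and 165 in the juveniles and 15.1 and 18.4 in the males. Both changes were without overlap and of opposite sign, at -4.27 ± 0.83 (SE, limma adjusted p = 0.0122) and 3.44 ± 0.51 (0.00557) on the log2 scale. At MSTRG.24120 one transcript had a log2 difference of -1.32 and another of 0.88, and at MSTRG.26295 these were -2.40 and 1.30. How reads on exons that transcripts of a locus share were counted is not stated, so such values are uncertain.

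Of the marker genes of the study, 22 could be tied to a transcript. The names come from earlier work on these data that matched transcripts by their levels in all fish with those drawn for a gene in heat maps, and the match for sox9a lacked 1 fish. Of the 22 genes, 4 were lower in juveniles than in males, 0 were higher and 18 were not called, by limma. That is 18.2% called, against 34.8% of all transcripts tested, though vtg1, cyp19a1a and igf3 had too few reads in these fish to show a difference. The genes were chosen for differences between the adult sexes. At an unadjusted p under 0.05, 6486 of the 13748 transcripts passed.

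Of the 4 oocyte and yolk genes, 3 had reads in the juveniles or males and were not called, and vtg1 had none to compare. Bmp15, a growth factor made by oocytes, had 2.12 and 3.70 normalised counts in the juveniles and 31.1 and 7.19 in the males. The juveniles were below both males, at -2.08 ± 0.69 on the log2 scale (SE, limma adjusted p = 0.0606). DESeq2 called it lower (adjusted p = 0.00423), as did limma without male 2 (0.0165) and with the table total as scaling (0.0335). Without male 1 the log2 difference was -1.10 (limma adjusted p = 0.189) and with a pseudocount of 10 it was -1.05 (0.118), so its size rests on male 1 and on the scale. Gdf9, the related oocyte factor, had 2.12 and 12.0 normalised counts in the juveniles and 24.0 and 3.995 in the males, and the groups overlapped. In the females bmp15 had a mean of 6685 normalised counts and gdf9 of 3363, so both juveniles and males were near the low end for these oocyte markers.

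Zbp3, which the study treats as an oocyte marker, had 1569 and 1318 normalised counts in the juveniles and 1572 and 1885 in the males. The log2 difference was -0.26 with a 95% interval from -0.67 to 0.15. The females, at 2423 and 2724, were within 2-fold of the males, so this transcript did not mark females as bmp15 and gdf9 did. Its name is less certain than the others, because another gene of the heat maps carries the same adult values. The transcript tied to vtg1, which encodes the yolk precursor vitellogenin, had 0 reads in all 4 fish. It had only 44 and 50 reads in the females, so it was weak there too. Its 0 reads do not show that vtg1 was absent.

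None of the 3 cell cycle and nuclear import genes was called between juveniles and males. Ccnb1 encodes cyclin B1, which drives entry into mitosis and meiosis. It had 658 and 627 normalised counts in the juveniles and 860 and 649 in the males, with overlap, at a log2 difference of -0.22 (95% interval from -0.79 to 0.36). Kpna2 and ipo4 encode carriers that bring proteins into the nucleus. Kpna2 had 1614 and 1423 in the juveniles and 1058 and 1411 in the males, at a log2 difference of 0.31 (95% interval from -0.14 to 0.76). Ipo4 had 1700 and 1478 in the juveniles and 2121 and 1831 in the males, at -0.31 (from -0.67 to 0.04). Both juveniles were above both males for kpna2, as in 41.1% of all transcripts tested, and below them for ipo4, as in 31.6%.

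Among the 7 genes of steroid hormones and gonad regulation, 2 were lower in juveniles and 5 were not called. Fkbp5, a co-chaperone of steroid hormone receptors, had 765 and 1520 normalised counts in the juveniles and 43027 and 30897 in the males. The groups were far apart, and the females lay between them at 13753 and 12559. The male mean was 32.4 times the juvenile mean, and the log2 difference was -5.08 ± 0.34 (SE, limma adjusted p = 0.000734). Of all transcripts tested only 1.45% had a lower log2 difference, and by normalised counts its fall was the 6th largest.

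Cyp17a1 encodes an enzyme needed to make androgens and oestrogens. It had 24.3 and 18.5 normalised counts in the juveniles and 251 and 91.9 in the males. Both males were above the juveniles, though they differed from each other by over 2-fold. The log2 difference was -2.78 ± 0.48 (SE, limma adjusted p = 0.00823). The call was lost without juvenile 3 (0.0688) and with only juveniles and males in the model (0.0529).

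Cyp19a1a, the gonadal aromatase that turns androgens into oestrogens, had 0 and 1 reads in the juveniles and 0 in both males. Igf3, an insulin-like growth factor of fish, had 2 and 3 reads in the juveniles and 5 and 2 in the males. No comparison is possible at such counts.

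The remaining regulators were transcription factors. Ftz-f1, a nuclear receptor also named nr5a2, had 287 and 317 normalised counts in the juveniles and 347 and 402 in the males, at a log2 difference of -0.31 (95% interval from -0.82 to 0.20). Nr0b1, a nuclear receptor that represses steroid hormone genes, had 224 and 146 in the juveniles and 563 and 143 in the males. The males of nr0b1 lay on both sides of the juveniles. Sox9a, needed for cartilage and expressed in the supporting cells of the testis, had 1084 and 1059 in the juveniles and 875 and 634 in the males. The juveniles were above both males, at 0.52 (95% interval from -0.08 to 1.12, limma adjusted p = 0.145).

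Of the 8 genes of metabolism, protein folding and transport, 2 were lower in juveniles. Pdia, whose symbol is that of the protein disulfide isomerases, enzymes that help proteins to fold in the endoplasmic reticulum, had 2561 and 2103 normalised counts in the juveniles and 13051 and 10579 in the males. The juveniles lay below both males, at a log2 difference of -2.34 ± 0.21 (SE, limma adjusted p = 0.00145). Rdh10b, an enzyme of retinoic acid synthesis, had 466 and 391 in the juveniles and 631 and 590 in the males. This small change was at -0.52 ± 0.15 (SE, limma adjusted p = 0.0420), and leaving out any 1 of the 6 fish ended the call (0.0644 to 0.186), as did edgeR (0.0624), the median of ratios taken on the table (0.0558) and a model of only juveniles and males (0.0795).

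The others of this group were not called. Gapdhs, a glycolytic enzyme, had 24122 and 25901 normalised counts in the juveniles and 26334 and 24304 in the males. Atp1b1a, a subunit of the sodium pump, had 23059 and 23811 in the juveniles and 24502 and 23207 in the males. Hbaa1, an alpha globin of red blood cells, had 24586 and 21781 in the juveniles and 21273 and 24547 in the males. In these 3 abundant genes the groups overlapped. The 95% intervals of the log2 difference were from -0.43 to 0.39, from -0.49 to 0.44 and from -0.44 to 0.48. With the size factors of the authors, this leaves room for changes of somewhat under 1.5-fold either way. With the table total as scaling, the differences themselves were -0.52, -0.52 and -0.48.

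Gyg1a, ctsla and apobb1 varied between the males. Gyg1a, which primes glycogen synthesis, had 4156 and 3829 normalised counts in the juveniles and 1878 and 4575 in the males. Ctsla, a lysosomal protease, had 10221 and 9344 in the juveniles and 6157 and 11559 in the males. Apobb1, an apolipoprotein of liver and intestine, had 140691 and 161111 in the juveniles and 154533 and 80684 in the males. In each of these the range of the males held at least 1 juvenile, and limma called gyg1a (adjusted p = 0.0134) and ctsla (0.0452) higher in juveniles once male 2 was left out, and apobb1 (0.0372) once male 1 was. Alpha globins, vitellogenins and apolipoproteins B belong to families of related genes, and reads shared between copies make their levels uncertain.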

How the data were processed

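The authors mapped reads to GRCz11 with HISAT2 2.1.0, assembled transcripts with StringTie 1.3.4, counted them with featureCounts 1.6.3 and ran DESeq2 2.11.40.2. Per fish, the deposited signal values hold counts that the authors scaled with DESeq2 size factors (median of ratios), beside their mean. The deposited log2 fold changes and standard errors, the score (Wald statistic), and the p-values and adjusted p-values come from the authors' DESeq2 comparison. They were used here only to find how the rows had been selected. Gene names are empty in the table, a mark on 47 transcripts is not explained in it, and 0 columns of per-sample values were without a group.

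Reads were recovered from the steps of the values (100% whole within 0.01). Groups were compared with limma-trend (limma 3.58.1, R 4.3.3), pseudocount 1, on 13748 transcripts with Benjamini-Hochberg adjustment at 0.05. All adjusted p-values are from limma unless edgeR 4.0.16 or DESeq2 1.42.0 is named. Fitted fold changes understate weak transcripts. The scripts were tested on simulated data. Tables were handled with Python 3.11.15 and pandas 2.3.3.

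Members, gene lists and tests were chosen with earlier results of these data known. By a fixed rule, the transcripts named were those with the largest log2 and count differences in each direction, called and with a mean of at least 100, and the study's marker genes with a known identifier. Sets of genes by tissue could not be counted without names. Alternatives were 4 scalings, 2 filters, a pseudocount of 10, fewer groups in the model, each fish left out, DESeq2 and edgeR. The genome sequence was not used here.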

Additional observations from a re-analysis of the deposited data

How the results depend on the processing

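No paired analysis was possible because juveniles 2 and 3 share only 1 number with males 1 and 2, and no label ties a juvenile to its number. Calls higher and lower in juveniles were 2561 and 2228. They moved by over 1.5 times with the table total as scaling (1361 and 4125), and between 569 and 2062 higher and 1034 and 1795 lower without 1 fish. The median log2 difference of 0.11 was 0.19 with the median of ratios, -0.012 with TMM, 0.00 with the upper quartile, -0.34 with the table total, 0.020 over transcripts with a mean of at least 100 and 0.096 with a pseudocount of 10, and 0.10 to 0.11 without 1 fish. Spearman's rho of size with abundance, -0.32, was -0.28 with TMM, -0.29 with the upper quartile, -0.14 with the table total, -0.23 with a mean of at least 100, -0.16 with a pseudocount of 10, -0.23 against the mean of juveniles and males, and -0.34 to -0.29 without 1 fish. Apart from the shift of each scaling and the loss of fish or transcripts, the cause of these moves was not tested.

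Of the named genes, 9 changed sign in some alternative, and none of them was called with all fish. With the median of ratios gapdhs was 0.062 and atp1b1a 0.054. Hbaa1 was -0.14 with TMM and -0.12 with the upper quartile. With the table total kpna2 was -0.19, gyg1a -0.054, ctsla -0.29, apobb1 -0.067 and hbaa1 -0.48. Without 1 fish, gdf9 ranged from -1.97 to 0.35, nr0b1 from -1.63 to 0.34, gyg1a from -0.20 to 1.09, ctsla from -0.24 to 0.67, apobb1 from -0.038 to 0.90, gapdhs from -0.075 to 0.040, atp1b1a from -0.064 to 0.014 and hbaa1 from -0.085 to 0.12. Further genes were called lower with the table total only, which were zbp3, ccnb1, ipo4 and ftz-f1. Nr0b1 was called lower without male 2 only. The 4 largest changes and the calls of fkbp5 and pdia had the same sign in every alternative.

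With 2 fish a group, no fish can be told to stand apart from its group. The 3-read floor and the selection of the table limit what can be said of weak transcripts, and the depth of the whole libraries is unknown.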
